A study of Danio rerio with 18 samples.

Results

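The antioxidant genes described here encode the enzymes that make and use glutathione, remove superoxide and peroxide, supply NADPH, store iron and degrade heme, together with Nrf2 and its regulators. They were taken from a list of 41 names that was looked up in the gene-name table without regard to case, then by RefSeq synonym, then without a final a or b. In this way 39 names matched 41 gene IDs of the 31953 in the files, since *sod3a* and *mgst1.1* matched 2 IDs each, and *gstm.1* and *hmox2a* were not matched. The *tkta* name matched the gene listed as TKT, and *gstp1* the gene listed as *gstp1.2*. The name *tktb* led to the same TKT gene, and *hmox1b* to the same HMOX1 gene as *hmox1a*. Which copy the values under *tkta* and *hmox1a* belong to is therefore not settled by the matching. A filter on low counts left 30 of the 41 IDs among the 16011 genes tested. The 11 IDs that did not pass were *slc7a11*, *gstp2*, *gsto1*, 1 of the *mgst1.1* IDs, both *sod3a* IDs, *gpx1b*, *gpx3*, *gpx7*, *gpx8* and *msrb2*, none of which had a mean above 3.82 counts per library.

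Translating ribosome affinity purification (TRAP), the pulldown of EGFP-tagged ribosomal protein L10a with the mRNA bound to it, was performed on zebrafish larvae at 3 days post fertilization. Keratinocytes carried either control HRas or oncogenic HRasG12V behind the krt4 promoter with an RFP tag. The question was how the transformed cells, and the leukocytes of larvae that carry such cells, differ from their controls. Wild type larvae received pTol2-krt4-GFP-L10a together with 1 of these constructs for the keratinocyte libraries, Tg(LyzC:EGFP-L10a) larvae received the construct alone for the neutrophil libraries, and Tg(mpeg1:EGFP-L10a) larvae for the macrophage libraries. Each of the 6 groups (3 cell types, HRas control or HRasG12V) had 3 libraries, 1 per replicate number, which is taken as the batch, and each library came from 50 pooled larvae. All larvae of every group, controls included, overexpressed a Ras transgene in keratinocytes, the injected constructs are mosaic, and ribosomes were pulled from whole larvae, so that ribosomes of unlabelled cells can be carried over. In such pulldowns fewer cells of a type and less RNA per cell cannot be told apart.

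Glutathione is a tripeptide made by glutamate-cysteine ligase and glutathione synthetase. It is spent by peroxidases and transferases and returned to its reduced form by glutathione reductase at the cost of NADPH. Nrf2 is a transcription factor held down by Keap1 and released under oxidative stress. Its targets in vertebrates include the glutathione genes, NADPH enzymes, heme oxygenase and ferritin, the iron store that keeps free iron from reacting with peroxide. In neutrophils NADPH also feeds the oxidase that makes superoxide.

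Macrophage HRas control replicate 3 held 16990 counts, with 1 count each for *gstp1* and *nfe2l2a* and none for the other members, and was left out throughout. The other 17 libraries held 6206924 to 14781123 counts, of which the 10 most abundant features took 72.9 to 94.7%, so that 385201 to 2577036 counts remained for all other genes. The 30 members tested had means of 5.12 to 157 counts per library with a median of 30.9, and 12 of them were under 20 counts. The summed level of 11 keratinocyte markers was 3190 to 5300 CPM (counts scaled to a common library total, here after trimmed mean of M values, TMM, normalisation) in keratinocyte HRas control libraries, and 814 to 1310 in neutrophil and 1190 to 1300 in macrophage HRas control libraries, with every marker detected in each group. The macrophage markers (15 gene IDs) summed to 46.9 to 94.2 CPM in macrophage HRas control libraries against 7.35 to 11.2 in those of keratinocytes, where 6 of the 15 IDs, those of *irf8*, *cd74a*, *c1qa*, *c1qb* and 2 copies of *mfap4*, were at 0. Of these, *c1qb* was also at 0 in every macrophage HRas control library used, so it does not separate these groups. Among the neutrophil HRas control libraries, 7 neutrophil markers summed to 28.0, 22.4 and 3.64 CPM in replicates 1, 2 and 3. In the fit over these libraries only 3 of the 7 markers were higher than in keratinocyte HRas controls. Their median log2 difference was -0.44 (-1.28 to 4.98), so the higher sums rest on a minority of the list. Neutrophil HRas control replicate 3, with 3 of 7 neutrophil markers detected, was no higher than the keratinocyte HRas control libraries at 4.61 to 8.77 CPM. Its 4 pan-leukocyte markers summed to 8.58 CPM, against 6.13 and 11.7 in replicates 1 and 2 and 1.68 to 3.68 in keratinocyte HRas control libraries. Outside the 10 most abundant features it held 400705 counts, against 1071486 and 1569328 in replicates 1 and 2. It thus stands apart from its label by the neutrophil list but not by the pan-leukocyte list. The calls, leading differences and medians that rest on it are given with and without it.

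Divided by gene length, the members spanned a wide range of levels. In the glutathione subgroup the level was highest for *gstp1* (ENSDARG00000104068), a pi-class transferase that conjugates glutathione to electrophiles, with a mean over the 17 libraries of 9.33 normalised CPM per kilobase, followed by *glrx* (ENSDARG00000028106), a glutaredoxin that reduces glutathione-bound proteins, at 7.21. The remaining glutathione members lay between 0.0219 (*gsto1*) and 1.90 (*gsr*, glutathione reductase) normalised CPM per kilobase. Among superoxide and peroxide genes the level was highest for *gpx4b* (ENSDARG00000076836), the peroxidase that repairs lipid peroxides, at 15.4 normalised CPM per kilobase, then *sod1* (ENSDARG00000043848), the copper-zinc superoxide dismutase, at 4.65. In the NADPH subgroup *idh1* (ENSDARG00000025375), cytosolic isocitrate dehydrogenase, stood at 4.19 and *taldo1* (ENSDARG00000103369), transaldolase of the pentose phosphate pathway, at 3.77. The ferritin heavy chain gene *fth1a* (ENSDARG00000015551) had 14.9, against 0.988 for heme oxygenase 1 (*hmox1a*, ENSDARG00000027529). For the Nrf2 subgroup the values were 3.06 for *nfe2l2a* (ENSDARG00000042824), which encodes Nrf2, and 2.57 for *sqstm1* (ENSDARG00000075014), the autophagy receptor p62 that binds Keap1.

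**Figure D1:**
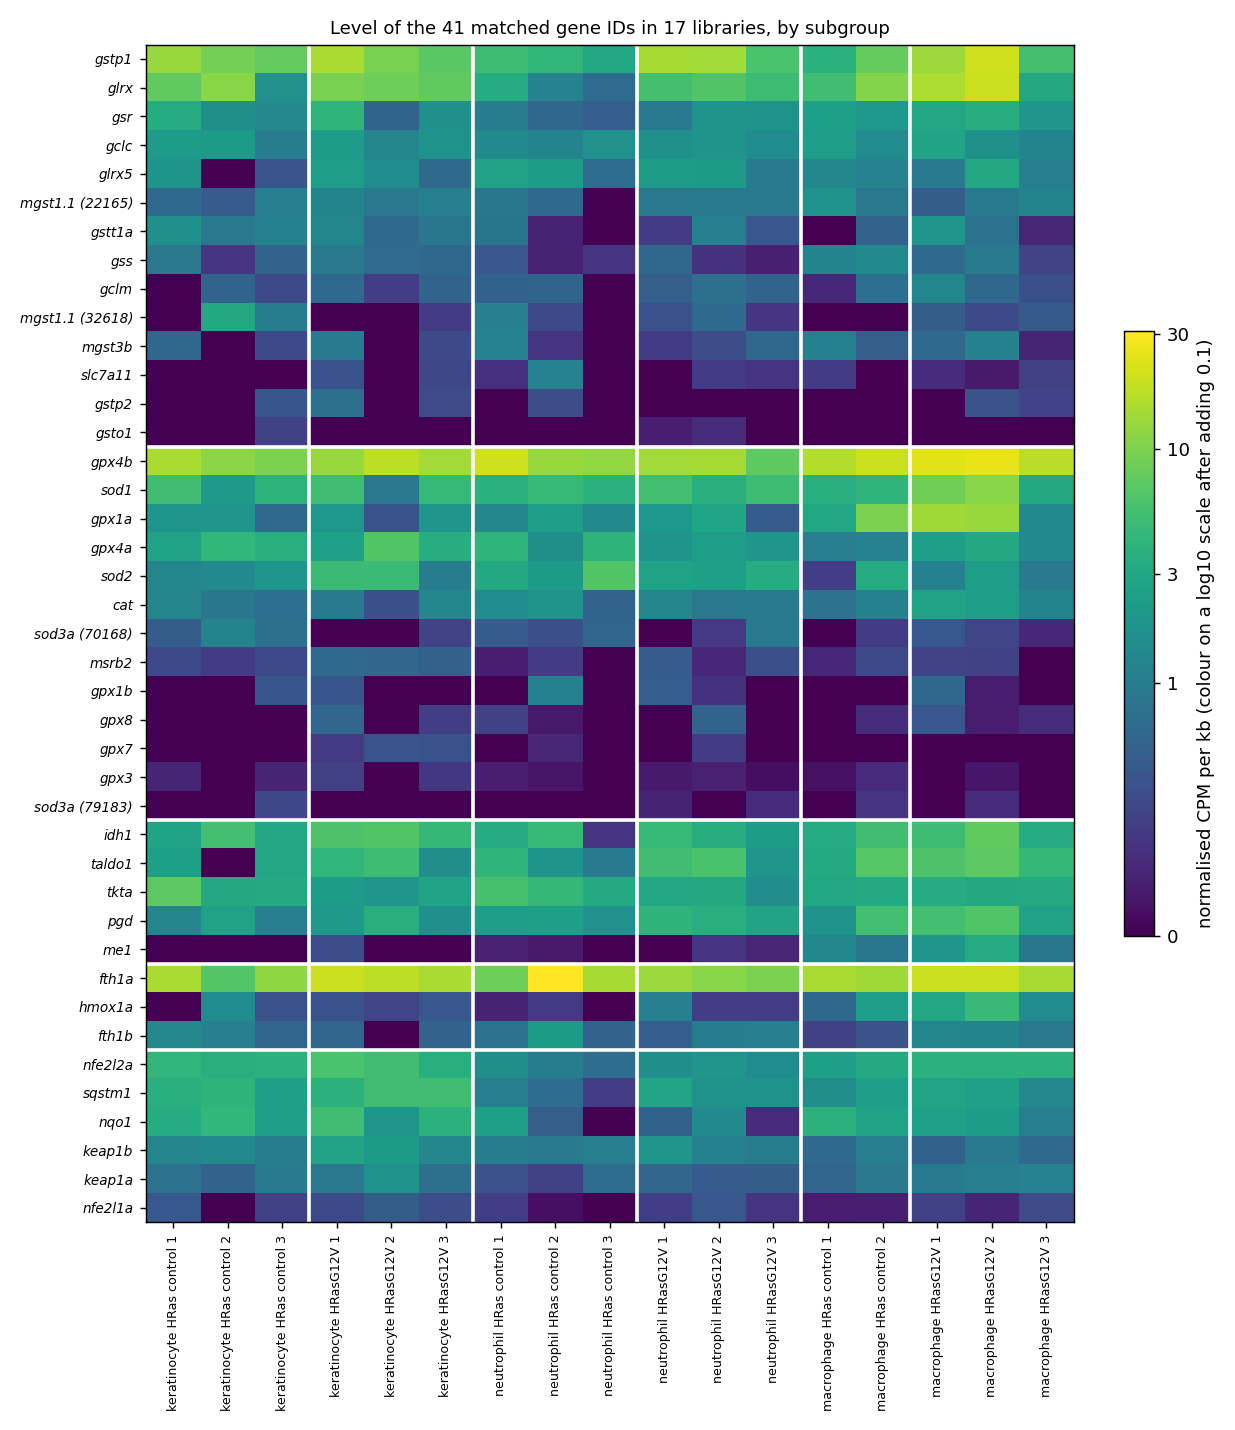
Level of each of the 41 gene IDs (rows, grouped by the 5 subgroups and ordered by mean level) in each of the 17 libraries (columns), as normalised CPM per kilobase on a log10 colour scale. *gpx4b* and *fth1a*, with means of 15.4 and 14.9, were bright in all 6 groups, while *me1* was visible mainly in the macrophage columns.

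Of the superoxide and peroxide genes with the highest levels per length, neither differed between cell types past the threshold. *gpx4b* read 11.5, 8.77 and 7.68 normalised CPM in keratinocyte HRas control libraries, 15.7, 9.87 and 9.36 in neutrophil and 12.4 and 15.3 in macrophage HRas control libraries. With HRasG12V it read 9.86, 13.7 and 10.9 in keratinocytes, 10.8, 10.9 and 5.68 in neutrophils and 18.4, 20.1 and 13.3 in macrophages. Among the HRas control libraries the neutrophil range overlapped both others while keratinocytes lay below macrophages, and with HRasG12V 1 keratinocyte library lay above the lowest macrophage library. *sod1* likewise overlapped, with 3.54, 1.41 and 2.65 normalised CPM in keratinocyte, 2.55, 3.07 and 2.60 in neutrophil and 2.42 and 2.83 in macrophage HRas control libraries. Under HRasG12V *sod1* was at 3.52, 0.609 and 3.09 in keratinocytes, 3.62, 2.37 and 3.33 in neutrophils and 5.99, 7.47 and 2.1 in macrophages, so that replicates 1 and 2 of the macrophages were above the rest. The interval of the *sod1* difference between neutrophil and keratinocyte HRas controls ran from -0.99 to 1.21 on the log2 scale, and that for *gpx4b* from -0.27 to 0.89.

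At baseline, 4 members were lower in neutrophils than in keratinocytes and none was higher (quasi-likelihood test of edgeR, adjusted p at most 0.05), where 2.48% of all genes were called lower and 2.1% higher. They were the Nrf2 gene *nfe2l2a*, its partner in the Keap1 pathway *sqstm1*, and the glutathione genes *gstp1* and *glrx*. Over the 30 members the median log2 difference was -0.19, or -0.28 without *me1*, which had 3 counts or fewer in both groups, against 0.00 over all genes. All differences here are relative to the median gene, since scaling by library size only moved the median of all genes to 0.53 and that of the members to 0.35 in this comparison. By subgroup the median was -1.58 for the 6 Nrf2 genes, all negative, and -0.86 for the 10 glutathione genes. The 6 superoxide and peroxide genes had 0.27, the 5 NADPH genes 0.03 and the 3 iron and heme genes 0.17. Without neutrophil HRas control replicate 3, *nfe2l2a* and *sqstm1* were the 2 members still called, and the medians were -0.08 for the 30 members against 0.08 for all genes. By subgroup they were then -1.50 for the Nrf2, -0.97 for the glutathione, 0.21 for the superoxide and peroxide, 0.23 for the NADPH and 0.47 for the iron and heme genes.

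*nfe2l2a* was at 19.6, 16.7 and 17.4 normalised CPM in keratinocyte HRas control libraries, at 7.66, 4.75 and 3.12 in those of neutrophils and at 11.5 and 15 in those of macrophages. Every neutrophil library was below every library of the other cell types, and the macrophage libraries were between. The log2 difference from keratinocytes to neutrophils was -1.79 ± 0.29 (SE, adjusted p = 0.000179 by edgeR's quasi-likelihood test), or -1.61 (adjusted p = 0.00306) without neutrophil HRas control replicate 3. Within batches 1, 2 and 3 the neutrophil level was 0.391, 0.284 and 0.179 times that of keratinocytes. In the HRasG12V libraries, which entered the same model and its estimate of the spread but not that difference, *nfe2l2a* read 27.6, 24.4 and 16.8 in keratinocytes, 7.66, 8.78 and 7.16 in neutrophils and 17.7, 17.6 and 17.6 in macrophages. There, too, the neutrophil libraries lay below all others, with a log2 difference of -1.51 ± 0.27 from keratinocytes (adjusted p = 0.000769, edgeR's quasi-likelihood test).

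*sqstm1* was at 5.0, 5.66 and 3.49 normalised CPM in keratinocyte, 1.53, 0.95 and 0.26 in neutrophil and 2.27 and 3.33 in macrophage HRas control libraries. The 3 cell types did not overlap in these libraries. Neutrophils were lower than keratinocytes by a log2 difference of -2.27 ± 0.50 (adjusted p = 0.00536, edgeR's quasi-likelihood test), or -2.02 (adjusted p = 0.0263) without neutrophil HRas control replicate 3. With HRasG12V *sqstm1* read 5.49, 7.31 and 7.37 in keratinocytes, 3.96, 2.52 and 2.47 in neutrophils and 3.96, 3.63 and 1.93 in macrophages. Keratinocytes were again above both leukocyte types, but the difference to neutrophils in these libraries, -1.25 (adjusted p = 0.093 by edgeR's quasi-likelihood test), was not past the threshold.

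*gstp1* was at 10, 7.35 and 6.14 normalised CPM in keratinocyte, 3.98, 3.44 and 2.34 in neutrophil and 3.03 and 6.33 in macrophage HRas control libraries. The neutrophil and keratinocyte libraries did not overlap, and the macrophage libraries reached from the range of the former to that of the latter. The log2 difference of neutrophils to keratinocytes was -1.34 ± 0.37 (adjusted p = 0.03, by edgeR's quasi-likelihood test). This call was lost without any 1 of the neutrophil HRas control libraries or keratinocyte HRas control replicates 1 or 3, the value without neutrophil replicate 3 being -1.42 (adjusted p = 0.0569). In the HRasG12V libraries the same difference was 0.04 (adjusted p = 0.977).

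*glrx* was at 6.04, 9.05 and 1.40 normalised CPM in keratinocyte, 2.76, 0.95 and 0.52 in neutrophil and 4.24 and 8.66 in macrophage HRas control libraries. Keratinocyte replicate 3 lay inside the neutrophil range, and both macrophage libraries were above all neutrophil libraries. The log2 difference to keratinocytes was -1.81 ± 0.52 (adjusted p = 0.0393, edgeR's quasi-likelihood test). It lost the call without any 1 of keratinocyte HRas control replicates 1 and 2, neutrophil HRas control replicates 2 and 3 and macrophage HRasG12V replicate 1, and was -1.72 (adjusted p = 0.103) without neutrophil replicate 3. In the HRasG12V libraries the same *glrx* difference was -0.69 ± 0.44 (adjusted p = 0.441, edgeR's quasi-likelihood test), not past the threshold. Markers moved with these 4 genes. The keratinocyte list was lower in neutrophil HRas control libraries, as given above. So were 6 liver markers, at 10.9 to 24.3 CPM in neutrophil against 35.3 to 37.7 in keratinocyte HRas control libraries. The pan-leukocyte list, given above, was higher in neutrophil HRas control libraries. Higher too were 6 neuron markers, at 240 to 275 CPM in neutrophil against 103 to 136 in keratinocyte HRas control libraries. The part of these lists in the differences was not tested.

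**Figure D2:**
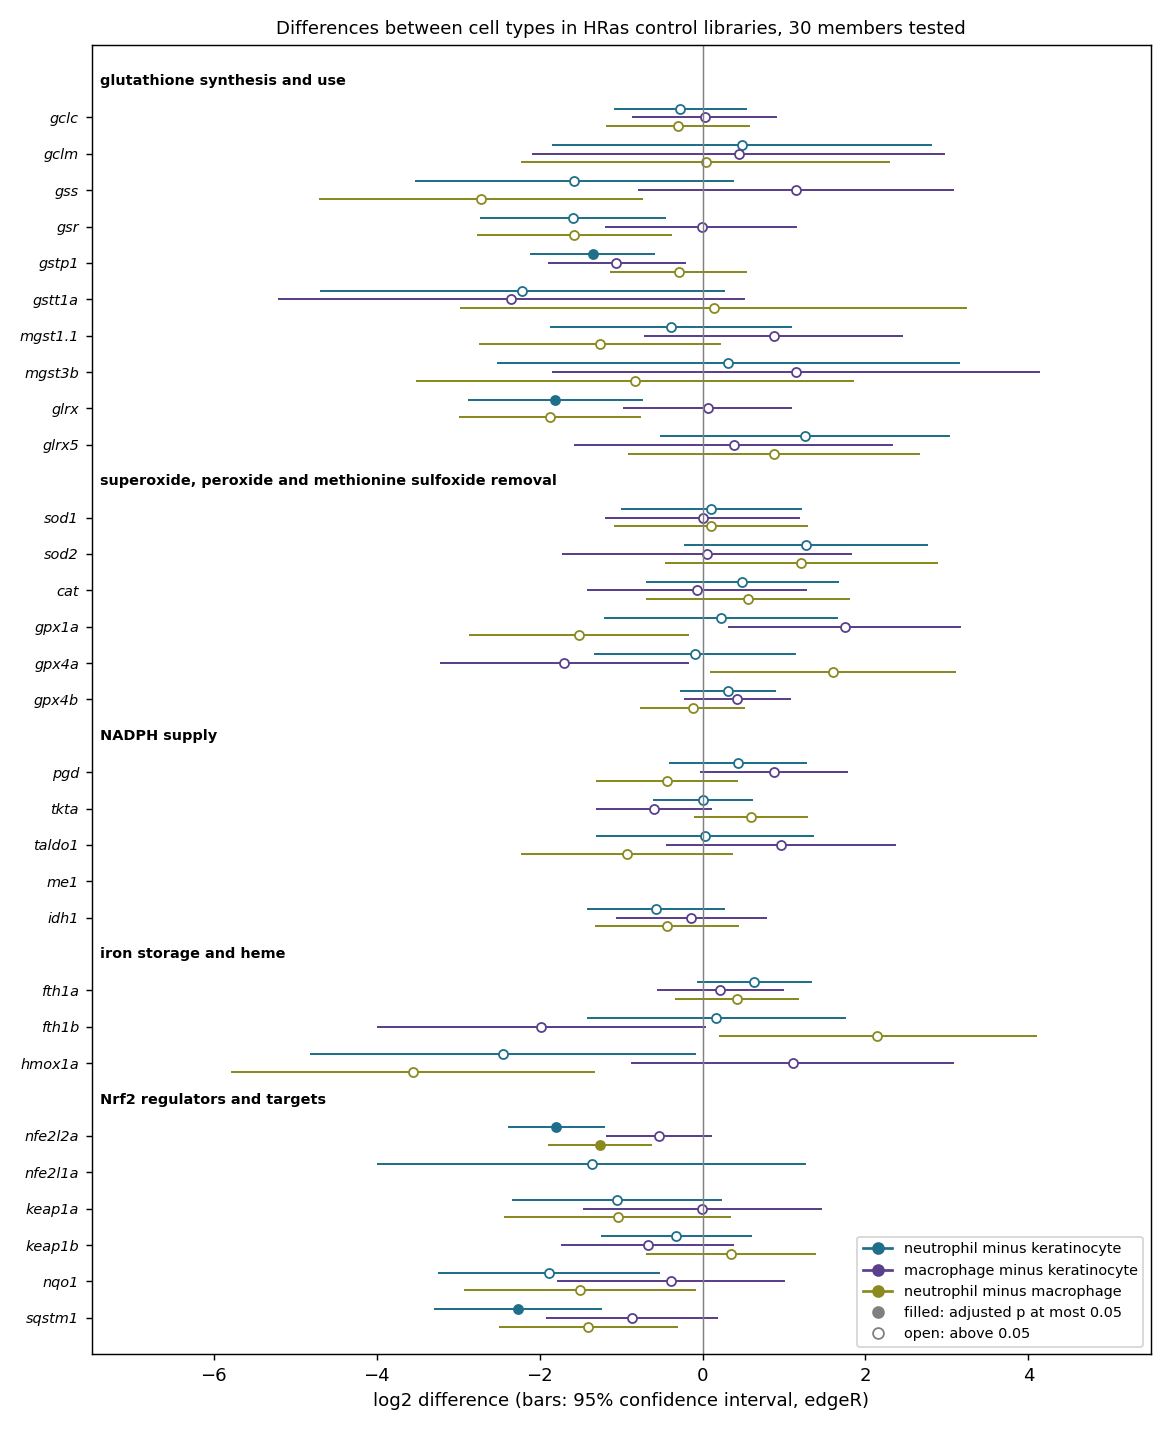
Difference in log2 level between cell types in HRas control libraries for the members tested, by subgroup, with 95% confidence intervals from edgeR (blue, neutrophil minus keratinocyte, purple, macrophage minus keratinocyte, olive, neutrophil minus macrophage). Filled points passed the adjusted p of 0.05, and no value is drawn where a group had 3 counts or fewer in all. *nfe2l2a*, *sqstm1*, *gstp1* and *glrx* are the 4 filled points of neutrophils against keratinocytes.

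Between neutrophils and macrophages 1 member, *nfe2l2a*, was called lower in neutrophils and none higher, where 1.07% of all genes were called lower and 0.231% higher. Its log2 difference was -1.26 ± 0.31 (adjusted p = 0.0292 by edgeR's quasi-likelihood test), and the call was lost without neutrophil HRas control replicate 2 or 3 or either macrophage HRas control library, with values between -1.52 and -0.91. The median of the 30 members was -0.37 against -0.04 for all genes, and 11 members (10.3% of all genes) had an unadjusted p under 0.05, of which 9 were lower in neutrophils. Without neutrophil HRas control replicate 3, *nfe2l2a* was at -1.09 (adjusted p = 0.106) and no member was called, with 9 members (9.22% of all genes) at an unadjusted p under 0.05 and a median of -0.40 against 0.03 for all genes. Between macrophages and keratinocytes no member was called by edgeR or DESeq2, with 4 (10.2% of all genes) at an unadjusted p under 0.05 by edgeR, where 0.756% of all genes were called higher and 0.799% lower. There the median of the 30 members was 0.02 against 0.07 for all genes, and in that comparison *nfe2l2a* differed by -0.53 (adjusted p = 0.614, edgeR's quasi-likelihood test).

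When the cell types were compared on the mean of both constructs, the shares of all genes called were larger, and more members were called in the 2 comparisons with macrophages. Neutrophils were lower than keratinocytes for 4 members as before, *nfe2l2a*, *sqstm1*, *glrx* and *nqo1*, a quinone reductase and classical Nrf2 target (6.36% of all genes called lower, 6.34% higher), while *gstp1* was no longer called (-0.65, adjusted p = 0.0834 by edgeR's quasi-likelihood test). Macrophages were higher than keratinocytes for *me1* and *gpx1a* (2.65% of all genes called higher, 2.31% lower). Neutrophils were lower than macrophages for *nfe2l2a*, *me1*, *hmox1a*, *gpx1a* and *glrx* (3.42% of all genes called lower, 1.24% higher). No member was called in the opposite direction in these 3 comparisons. *me1* and *hmox1a* passed the filter on low counts through the macrophage libraries. Their calls here are therefore no support for macrophages being higher, and their values are given below. Without neutrophil HRas control replicate 3, 4 members were called between neutrophils and keratinocytes, where 1637 of 15983 genes were called in either direction. Between neutrophils and macrophages 5 were called, where 714 genes were. *nqo1*, *me1* and *gpx1a* are described here because of these calls, after their values were seen.

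*me1* (ENSDARG00000053215), the cytosolic malic enzyme that yields NADPH, was at 0 in all 3 keratinocyte HRas control libraries and at 0.423, 0 and 0 normalised CPM in keratinocyte HRasG12V libraries. Neutrophil libraries held 0.102, 0.0731 and 0 with HRas control and 0, 0.202 and 0.123 with HRasG12V, against 1.97 and 1.25 in macrophage HRas control and 2.76, 4.88 and 1.26 in macrophage HRasG12V libraries. All 5 macrophage libraries were above all 12 others. Summed over the HRas control libraries, *me1* had 28 counts in macrophages, 2 in neutrophils and 0 in keratinocytes. The gene passed the filter on low counts through the macrophage libraries, so these values are a description only, and no fitted difference is given for it.

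*hmox1a*, which degrades heme and releases its iron, was at 0, 1.98 and 0.419 normalised CPM in keratinocyte, 0.102, 0.219 and 0 in neutrophil and 0.756 and 3.16 in macrophage HRas control libraries. The HRasG12V libraries read 0.423, 0.304 and 0.491 in keratinocytes, 1.46, 0.252 and 0.247 in neutrophils and 3.96, 6.26 and 2.01 in macrophages. Macrophages and keratinocytes overlapped among the controls but not with HRasG12V. Neutrophils lay below macrophages within each construct, though neutrophil HRasG12V replicate 1 was above macrophage HRas control replicate 1. Like *me1*, *hmox1a* passed the filter on low counts through the macrophage libraries. Its call is therefore no support for macrophages being higher, and no fitted difference between cell types is given for it. *gpx1a* (ENSDARG00000018146), a glutathione peroxidase of the cytosol, was at 1.67, 1.70 and 0.558 in keratinocyte, 1.23, 2.12 and 1.30 in neutrophil and 2.72 and 8.82 in macrophage HRas control libraries, and with HRasG12V at 1.83, 0.304 and 1.68 in keratinocytes, 1.81, 2.52 and 0.37 in neutrophils and 12.2, 11.4 and 1.26 in macrophages, whose replicate 3 lay within the range of the other cell types. Over both constructs macrophages were higher than keratinocytes by 1.85 ± 0.47 (adjusted p = 0.0137, edgeR's quasi-likelihood test). *nqo1* (ENSDARG00000010250) was at 4.17, 5.37 and 2.93 in keratinocyte against 3.06, 0.585 and 0 in neutrophil HRas control libraries, which overlapped, and at 6.48, 2.44 and 4.77 against 0.603, 1.77 and 0.123 with HRasG12V, which did not. Macrophages held 4.84 and 3.25 with HRas control and 3.13, 2.76 and 1.34 with HRasG12V. The *nqo1* difference of neutrophils to keratinocytes over both constructs was -2.21 ± 0.47 (adjusted p = 0.00128, edgeR's quasi-likelihood test), or -1.98 (adjusted p = 0.00379) without neutrophil HRas control replicate 3.

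**Figure D3:**
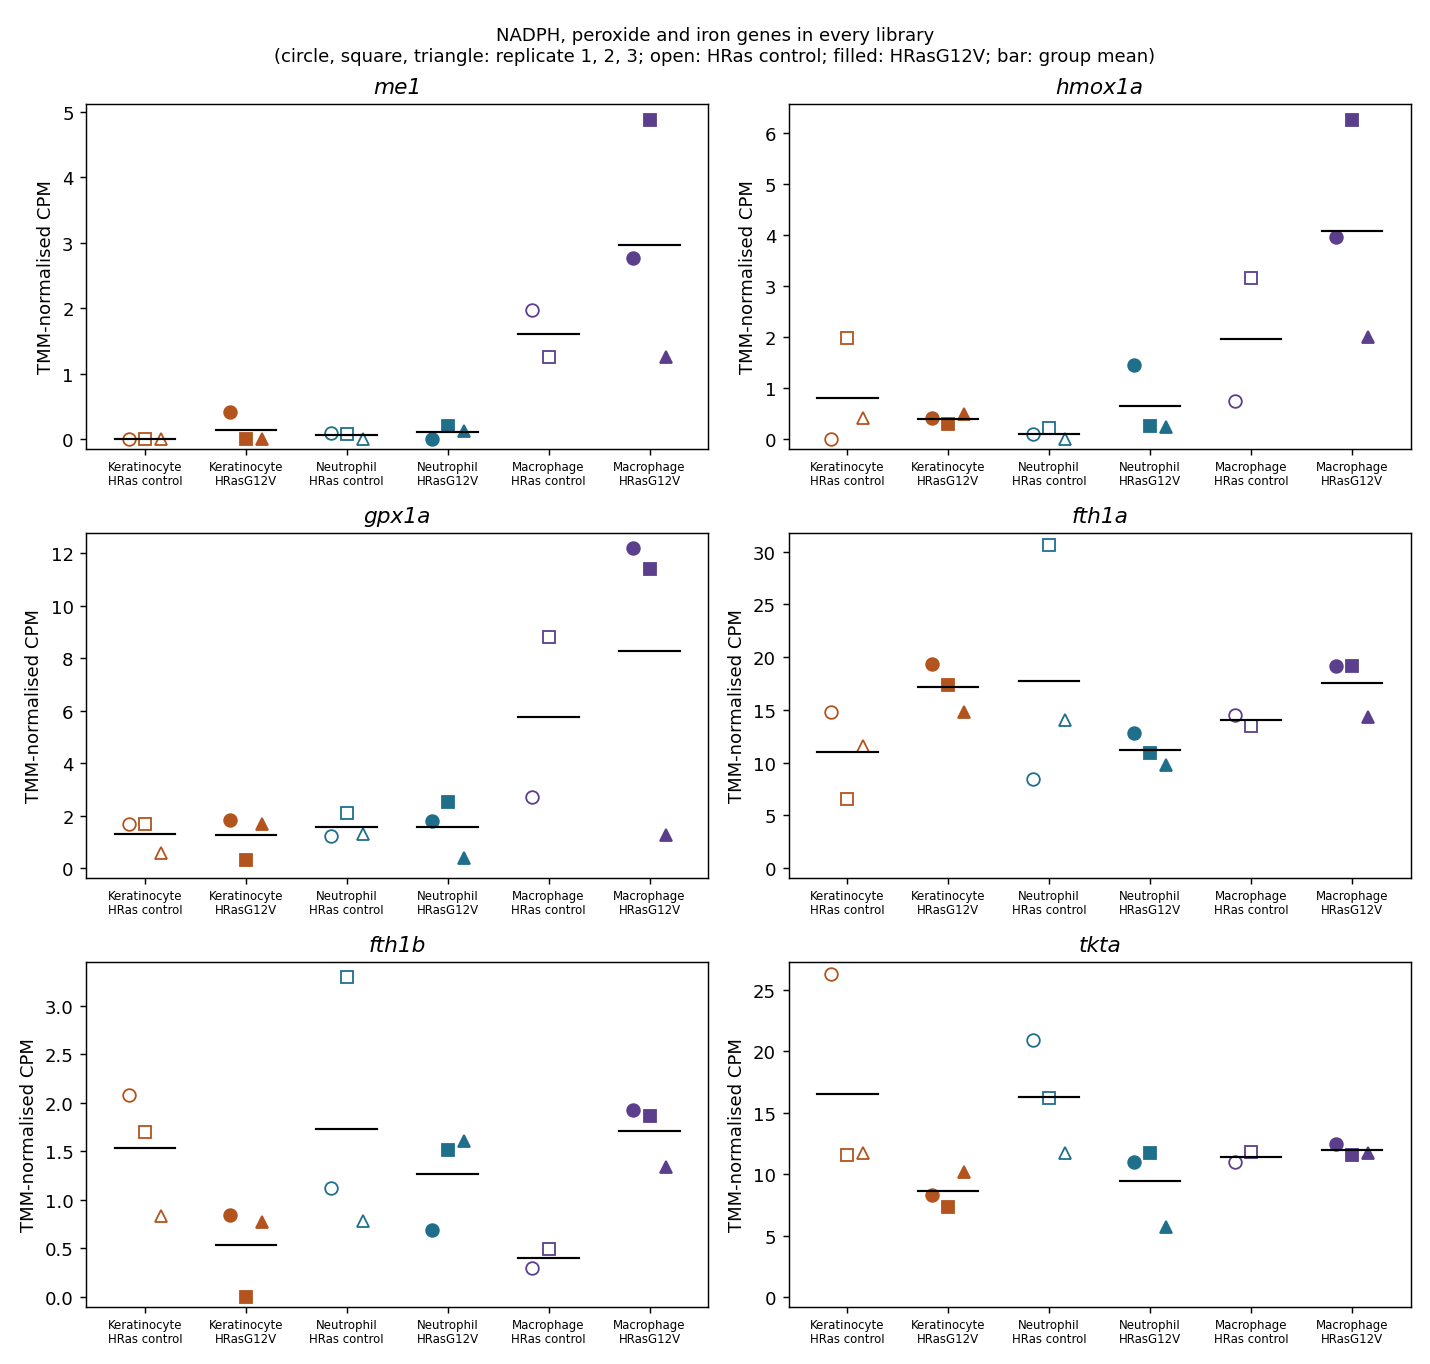
Normalised CPM of 6 members in each of the 17 libraries by group (bar, group mean). *me1* was between 1.25 and 4.88 in the macrophage libraries and at most 0.423 elsewhere, and *tkta* was highest in 1 keratinocyte HRas control library at 26.3.

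HRasG12V changed no member past the threshold in any cell type. In keratinocytes, where 0.256% of all genes were called higher and 0.00625% lower by edgeR's quasi-likelihood test, 0 of 30 members were called, 1 had an unadjusted p under 0.05 (7.23% of all genes), and DESeq2 called 0. In neutrophils, where 0.05% of genes were called higher and 0.0999% lower, 0 were called by edgeR and 7 had an unadjusted p under 0.05 (6.99% of all genes), or 4 (5.84%) without neutrophil HRas control replicate 3, while DESeq2's Wald test called *gstp1* alone. In macrophages 0% of genes were called in either direction, 2 members had an unadjusted p under 0.05 (3.02% of all genes), and DESeq2 called 0. The members' median log2 difference was 0.48 in keratinocytes (26 of 30 positive), 0.41 in neutrophils (20 of 30) and 0.55 in macrophages (25 of 30), against 0.01, 0.04 and 0.03 over all genes. The neutrophil median was 0.34 without neutrophil HRas control replicate 3, against -0.02 over all genes. With scaling by library size only, the medians were 0.78, 0.82 and 1.29 for members and 0.39, 0.49 and 0.76 for all genes. Without *me1*, whose keratinocyte groups had 0 and 3 counts, the keratinocyte median was 0.46 over 29 members.

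**Figure D4:**
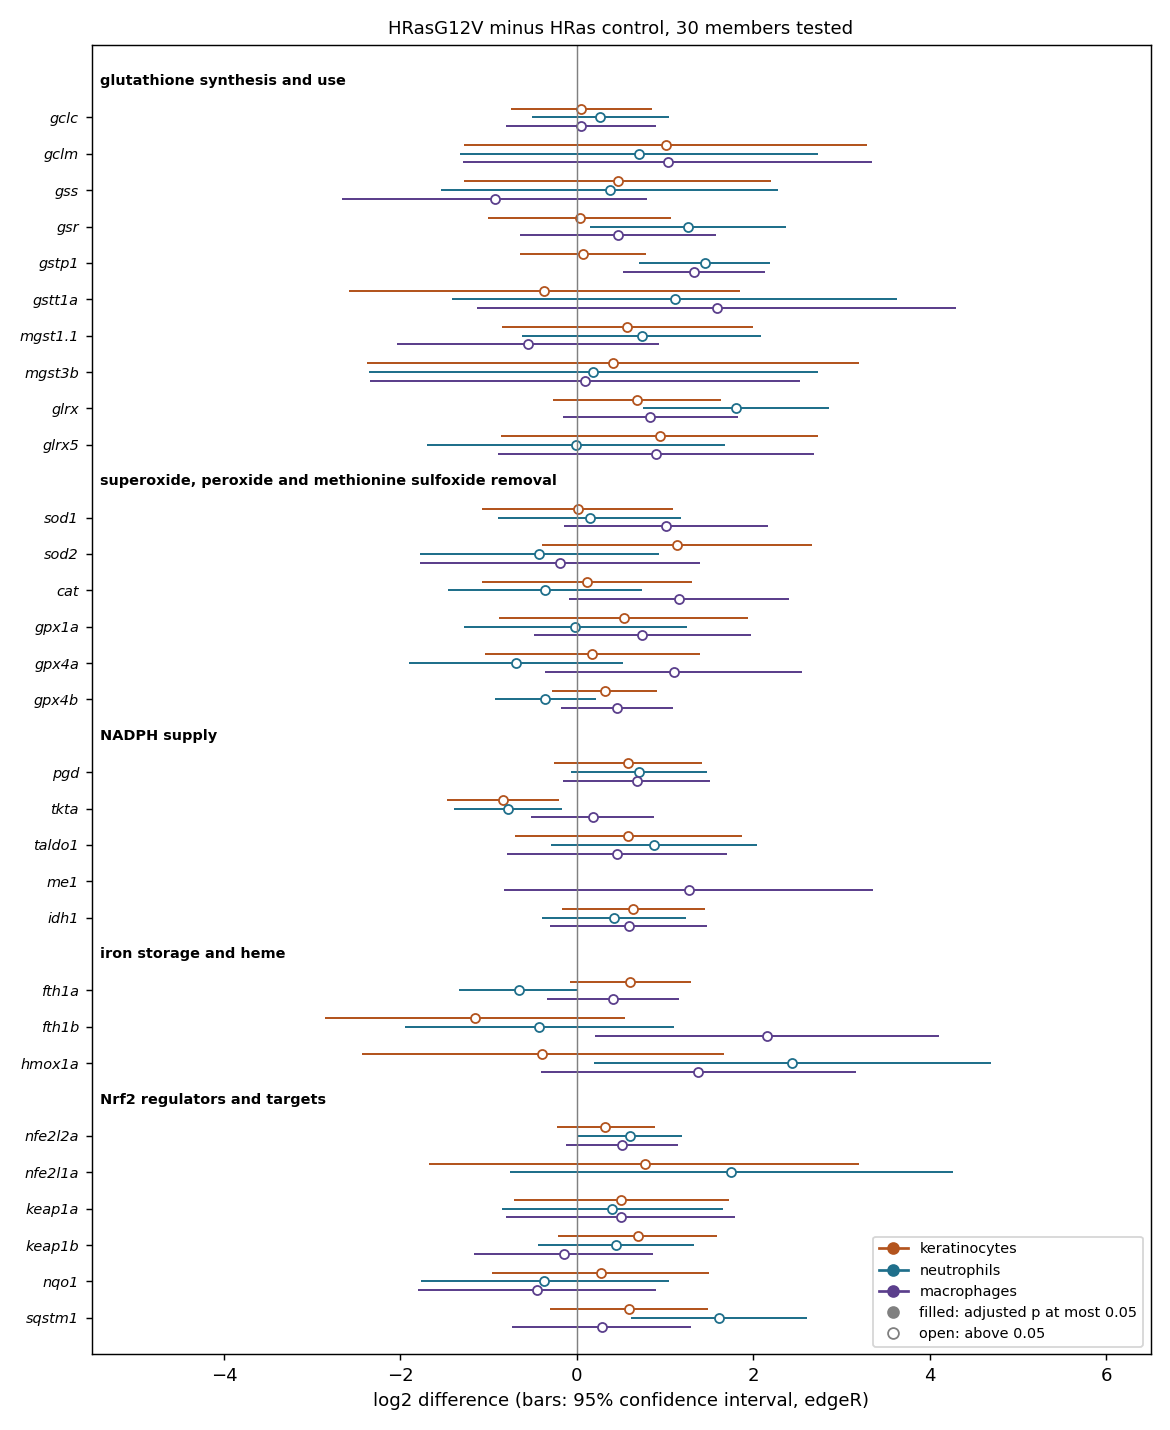
Log2 difference of HRasG12V from HRas control for the members tested in keratinocytes (orange), neutrophils (blue) and macrophages (purple), by subgroup, with 95% confidence intervals from edgeR. All points are open, since none passed the adjusted p of 0.05, and no value is drawn where a group had 3 counts or fewer in all. The neutrophil intervals of *gstp1*, *glrx*, *sqstm1*, *gsr*, *hmox1a* and *nfe2l2a* lay above 0, and that of *tkta* lay below 0. In keratinocytes the interval of *tkta* also lay below 0, and in macrophages those of *gstp1* and *fth1b* lay above 0.

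In keratinocytes, the cells that carried the oncogene, the 10 glutathione genes had a median of 0.43 with 9 positive, the 6 superoxide and peroxide genes 0.25, the 5 NADPH genes 0.58 with 4 positive and the 6 Nrf2 genes 0.55 with all positive. Among the superoxide and peroxide genes the fitted differences of *cat* (0.11) and *sod1* (0.01) were near 0, and their group means were lower with HRasG12V, at 1.73 against 1.86 normalised CPM for *cat* and 2.41 against 2.54 for *sod1*. The NADPH median was 0.58 without *me1* as well, yet the summed level of the 5 genes was 28.2 normalised CPM in HRas control and 26.9 in HRasG12V keratinocyte libraries, and *tkta* had the opposite sign. The 3 iron and heme genes had a median of -0.39 with 1 positive, *fth1a*. Their summed level went the other way, with a mean of 13.3 normalised CPM in HRas control and 18.1 in HRasG12V keratinocyte libraries and overlapping ranges. The smallest p among members belonged to *tkta* (ENSDARG00000029689), a transketolase of the pentose phosphate pathway. It read 26.3, 11.6 and 11.7 normalised CPM in HRas control and 8.31, 7.31 and 10.2 in HRasG12V libraries. All HRasG12V libraries were below all controls, and the log2 difference was -0.83 ± 0.31 (adjusted p = 0.478, edgeR's quasi-likelihood test). It was -0.47 without keratinocyte HRas control replicate 1, the library at 26.3, and -1.22 without HRasG12V replicate 3. Within batches 1, 2 and 3 the HRasG12V level of *tkta* was 0.316, 0.63 and 0.872 times its control.

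*fth1a*, the ferritin heavy chain that oxidises and stores iron, was at 14.8, 6.51 and 11.6 normalised CPM in keratinocyte HRas control and 19.3, 17.4 and 14.8 in keratinocyte HRasG12V libraries, higher in each batch but with the ranges touching. The log2 difference was 0.60 ± 0.33 (adjusted p = 0.74, edgeR's quasi-likelihood test), or 0.25 without HRas control replicate 2, the library at 6.51. *idh1* went with it at 5.21, 10.5 and 5.72 in HRas control and 11.7, 12.2 and 8.42 in HRasG12V keratinocyte libraries, also higher in each batch with overlapping ranges, and a log2 difference of 0.64 ± 0.39 (adjusted p = 0.795, edgeR's quasi-likelihood test). The Nrf2 gene itself differed by 0.32 (interval -0.22 to 0.87), and *gstp1* by 0.07 (interval -0.63 to 0.77). Skeletal muscle markers moved with the construct in these libraries, from 213 to 340 CPM in HRas control to 748 to 1030 in HRasG12V, with all 7 genes detected in both, as did 7 neutrophil markers (4.61 to 8.77 and 8.83 to 13.9 CPM) and 5 erythroid markers (3.96 to 6.84 and 7.37 to 8.17 CPM), and their part in these values was not tested.

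In neutrophils of larvae with HRasG12V keratinocytes, the glutathione genes had a median log2 difference of 0.72 with 9 of 10 positive, the NADPH genes 0.70 with 4 of 5 and the Nrf2 genes 0.52 with 5 of 6. The superoxide and peroxide genes had -0.36 with 1 of 6 positive, and the iron and heme genes -0.42 with 1 of 3. Without neutrophil HRas control replicate 3 these medians were 0.47 (8 of 10 positive), 0.71 (3 of 5), 0.71 (5 of 6), -0.10 (3 of 6) and -0.74 (1 of 3). Without *me1*, which had 2 counts in the HRas control and 5 in the HRasG12V group, the NADPH median over all libraries was 0.56 with 3 of 4 positive. The summed level of the 5 NADPH genes was 27.3 normalised CPM in HRas control and 25.9 in HRasG12V neutrophil libraries. The smallest p values belonged to 3 of the genes that were lower in neutrophils at baseline. *gstp1* was at 3.98, 3.44 and 2.34 normalised CPM in HRas control and 11.3, 10.9 and 4.82 in HRasG12V neutrophil libraries. All HRasG12V libraries were above all controls, 2.84, 3.17 and 2.06 times within batches 1, 2 and 3. The log2 difference was 1.45 ± 0.36 (adjusted p = 0.103, edgeR's quasi-likelihood test), or 1.53 (adjusted p = 0.121) without neutrophil HRas control replicate 3, and DESeq2's Wald test gave 1.44 with an adjusted p of 0.0327.

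*glrx* was at 2.76, 0.95 and 0.52 normalised CPM in HRas control and 4.48, 5.20 and 4.07 in HRasG12V neutrophil libraries, without overlap. The log2 difference was 1.80 ± 0.51 (adjusted p = 0.212 by edgeR's quasi-likelihood test), or 1.70 (adjusted p = 0.407) without neutrophil HRas control replicate 3. *sqstm1* was at 1.53, 0.95 and 0.26 in HRas control and 3.96, 2.52 and 2.47 in HRasG12V neutrophil libraries, also without overlap, with a log2 difference of 1.61 ± 0.49 (adjusted p = 0.272, edgeR's quasi-likelihood test), or 1.38 (adjusted p = 0.586) without that control. The baseline difference of neutrophils to keratinocytes and the HRasG12V difference in neutrophils share the 3 neutrophil HRas control libraries, so a low control value enters both.

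Other members with an unadjusted p under 0.05 in neutrophils were *gsr* at 1.26, *hmox1a* at 2.44, *nfe2l2a* at 0.60 and *tkta* at -0.78 on the log2 scale, with adjusted p values between 0.501 and 0.691 by edgeR's quasi-likelihood test. Without neutrophil HRas control replicate 3 they were at 1.19, 2.28, 0.42 and -0.88, and *tkta* was the 1 of these 4 with an unadjusted p under 0.05. The *tkta* gene was at 20.9, 16.2 and 11.7 normalised CPM in HRas control and 11, 11.7 and 5.68 in HRasG12V neutrophil libraries, lower in each batch, with HRasG12V replicate 2 at the level of control replicate 3. *fth1a* went from 8.47, 30.6 and 14.0 to 12.8, 10.9 and 9.75, the controls being spread around the HRasG12V values. *idh1* was at 6.23, 8.70 and 0.26 against 8.61, 6.61 and 4.20, and *taldo1* at 3.47, 1.53 and 0.78 against 4.39, 4.84 and 1.61, both overlapping. The summed neutrophil markers were at 3.64 to 28.0 CPM in HRas control and 31.2 to 71.5 in HRasG12V neutrophil libraries, and 4 pan-leukocyte markers at 6.13 to 11.7 and 20.6 to 28.6. Photoreceptor markers (9 IDs) were at 39 to 146 and 8.89 to 18.9 CPM, and 5 erythroid markers at 1.82 to 4.82 and 7.16 to 7.97. None of these 4 sums overlapped between the constructs, the neutrophil markers were all detected in both groups, and their part in the *gstp1*, *glrx* and *sqstm1* values was not tested.

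**Figure D5:**
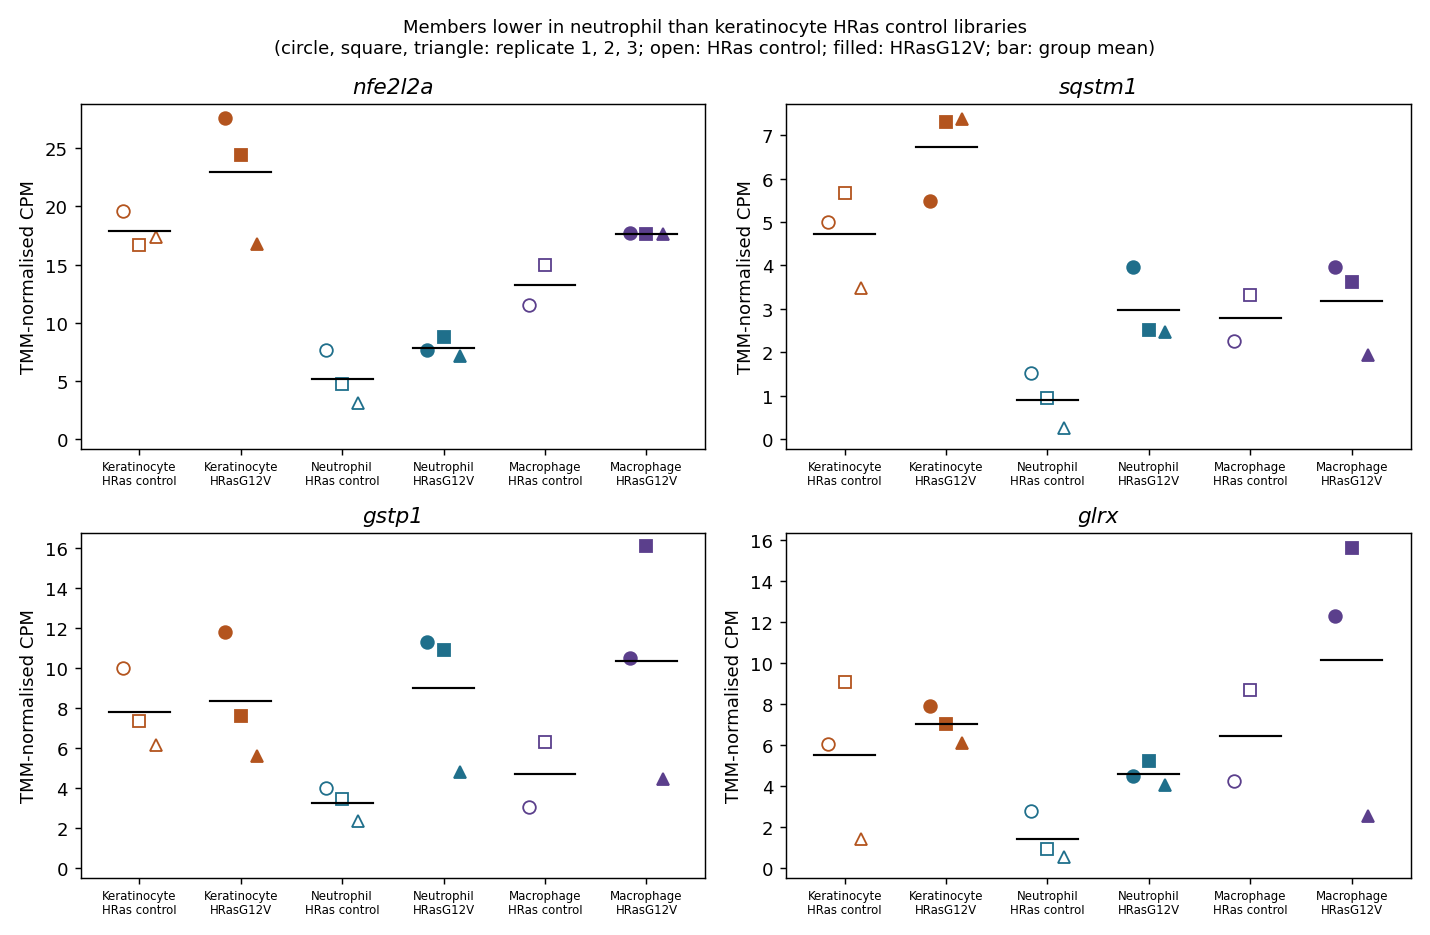
Normalised CPM of the 4 members called lower in neutrophil than in keratinocyte HRas control libraries, in each of the 17 libraries (open, HRas control, filled, HRasG12V, bar, group mean). The neutrophil HRasG12V libraries of *gstp1* lay between 4.82 and 11.3 and the HRas control libraries between 2.34 and 3.98.

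In macrophages, with 2 HRas control libraries, the iron and heme genes had a median log2 difference of 1.37, the superoxide and peroxide genes 0.88 with 5 of 6 positive, the glutathione genes 0.65 with 8 of 10, the NADPH genes 0.59 with all 5 and the Nrf2 genes 0.39 with 4 of 6. *gstp1* had the smallest p, at 3.03 and 6.33 normalised CPM in HRas control and 10.5, 16.1 and 4.45 in HRasG12V libraries. HRasG12V replicate 3, from the batch whose control was left out, lay between the controls, and the log2 difference was 1.32 ± 0.39 (adjusted p = 1, edgeR's quasi-likelihood test). *fth1b* (ENSDARG00000007975), the second ferritin heavy chain gene, was at 0.303 and 0.499 against 1.93, 1.86 and 1.34, without overlap, with a log2 difference of 2.15 ± 0.95 (adjusted p = 1). Its counts were 1.82 to 5.67 in the control libraries. In the other cell types *fth1b* was at 2.08, 1.70 and 0.838 against 0.845, 0 and 0.772 in keratinocytes and at 1.12, 3.29 and 0.78 against 0.689, 1.51 and 1.61 in neutrophils, where the ranges overlapped.

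*cat* (ENSDARG00000104702), the catalase that splits hydrogen peroxide, was at 1.51 and 2.25 normalised CPM in macrophage HRas control and 5.16, 4.58 and 2.35 in macrophage HRasG12V libraries, with a log2 difference of 1.16 ± 0.61 (adjusted p = 1, edgeR's quasi-likelihood test). The groups did not overlap, though HRasG12V replicate 3 was close to the higher control. In keratinocytes *cat* read 2.5, 1.70 and 1.40 against 1.97, 0.609 and 2.60, and in neutrophils 2.96, 3.65 and 1.04 against 2.5, 1.77 and 1.85, both overlapping. *glrx* in macrophages was at 4.24 and 8.66 against 12.3, 15.6 and 2.52, *fth1a* at 14.5 and 13.5 against 19.2, 19.2 and 14.3, and *tkta* at 11 and 11.8 against 12.5, 11.6 and 11.7, all overlapping. Of the remaining genes with high levels, *idh1* was at 6.20 and 9.90 against 9.76, 14.2 and 6.29, and *taldo1* at 2.72 and 5.58 against 5.16, 5.96 and 3.69, where in keratinocytes *taldo1* was at 2.08, 0 and 2.51 against 3.52, 4.26 and 1.33. In macrophages the macrophage markers were at 46.9 to 94.2 CPM in HRas control and 61.8 to 115 in HRasG12V libraries, and the keratinocyte markers at 1190 to 1300 and 1930 to 2610. Liver markers were at 12 to 15.5 and 23.9 to 30.8 CPM, skeletal muscle markers at 306 to 322 and 357 to 522, and neutrophil markers at 7.56 to 8.49 and 10 to 16.4. Apart from the macrophage list these sums did not overlap between the constructs, and their part was not tested.

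The HRasG12V differences were compared between cell types by interaction terms, and no member was called by edgeR or DESeq2 in any of the 3 comparisons, where 0.0125% of all genes were called in each. For *gstp1* the neutrophil difference exceeded that of keratinocytes by 1.38 ± 0.50 on the log2 scale (adjusted p = 0.82 by edgeR's quasi-likelihood test; 1.47 without neutrophil HRas control replicate 3), and the macrophage difference by 1.25 ± 0.52 (adjusted p = 1). For *fth1a* the neutrophil difference was below that of keratinocytes by -1.26 ± 0.47 (adjusted p = 0.89), or -1.33 without that library, and for *fth1b* the macrophage difference was above it by 3.31 ± 1.25 (adjusted p = 1). The numbers of members with an unadjusted p under 0.05 were 2, 3 and 3 for neutrophils minus keratinocytes, macrophages minus keratinocytes and neutrophils minus macrophages. These counts of the main fit are not set against all genes and are not read as a result about the members. Without neutrophil HRas control replicate 3 they were 2 of 30 (4.88% of all genes) for neutrophils minus keratinocytes and 4 of 30 (3.97% of all genes) for neutrophils minus macrophages.

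Of 94 further names in the same pathways, 87 gene IDs were found and 67 were tested. HRasG12V changed none of them past the threshold in keratinocytes, neutrophils or macrophages by edgeR's quasi-likelihood test. An unadjusted p under 0.05 was reached by 4, 2 and 3 of them (5.97, 2.99 and 4.48%), against 7.23, 6.99 and 3.02% of all genes. Their medians on the log2 scale were 0.11, 0.17 (0.08 without neutrophil HRas control replicate 3) and 0.25, against 0.01, 0.04 and 0.03 over all genes. At baseline *abcc4*, an exporter of organic anions, was lower in neutrophils than in keratinocytes (-2.19 ± 0.49, adjusted p = 0.00614, or -1.92, adjusted p = 0.0377, without neutrophil HRas control replicate 3), the only call among the 67. Macrophages were higher than keratinocytes for *slc3a2a*, the heavy chain that carries the cystine transporter *slc7a11* to the membrane (1.85 ± 0.45, adjusted p = 0.022), and *me2*, the mitochondrial malic enzyme (1.72 ± 0.37, adjusted p = 0.00688). Neutrophils were lower than macrophages for the same pair, by -2.47 ± 0.45 for *slc3a2a* (adjusted p = 0.0011) and -1.49 ± 0.36 for *me2* (adjusted p = 0.0237), or -2.55 (adjusted p = 0.00169) and -1.63 (adjusted p = 0.0136) without neutrophil HRas control replicate 3. The level of *slc3a2a* was 2.26 ± 0.516 normalised CPM (SD, n = 3) in keratinocyte, 1.59 ± 0.405 (n = 3) in neutrophil and 8.89 ± 1.67 (n = 2) in macrophage HRas control libraries, while *slc7a11* itself had at most 14 counts in any library. Zebrafish hold further ferritin heavy chain copies, of which *fthl27* was at 5.64 ± 0.693, 4.29 ± 2.69 and 9.54 ± 2.16 normalised CPM in the same groups. Reads shared among the ferritin copies, and between *gstp1* and *gstp2* (at most 6.02 counts in any library), were divided by the estimation of counts, so the values of single copies are uncertain.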

How the data were processed

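TRAP-seq libraries of zebrafish larvae were sequenced on an Illumina HiSeq after 20 cycles of amplification. Per the study's methods and the submitters' processing notes, reads were mapped by the authors with Bowtie 1.1.1 (build GRCz10), who deposited expected counts per Ensembl gene estimated with RSEM 1.2.20. Here the expected counts were rounded, scaled by TMM and tested with edgeR 4.0.16 in R 4.3.3 (filterByExpr over the 6 groups, quasi-likelihood F-test, prior count 0.125) on 17 libraries, with the 6 groups and batch in 1 model. P-values were adjusted by Benjamini-Hochberg across the 16011 genes that entered the fit, and at most 0.05 was called. SE is the log2 difference divided by the square root of F. Replicates are separate pools of larvae. The libraries give no molecular identifiers. CPM per kilobase used the mean effective length in the files.

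The members and lists were chosen with earlier results of these data known. Of the 41 names, 28 were matched by symbol, 6 by synonym and 5 without a final letter. Values in every library were given, in the text or in a figure, for members past the threshold (up to 3 per subgroup and baseline comparison), the 2 with the highest level per kilobase in each subgroup and, where fewer than 3 passed in an HRasG12V comparison, the 3 with the smallest p. The sample titles give replicate numbers only. Libraries of equal number were taken as 1 batch because the study's own model used replicate as a term for possible batch effects, which is where the pairing comes from. Over 8716 genes, 4 of 8 same-numbered pairs had deviations correlated above 0.1 (r -0.07 to 0.29). Alternatives were other scalings and filters, DESeq2 1.42.0, no replicate block, other sets of libraries, each library and each batch left out, and, chosen after seeing the data, baseline comparisons on HRasG12V libraries and those on both constructs without neutrophil HRas control replicate 3. The models were tested on simulated data. Promoter sequence was not used here.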

Additional observations from a re-analysis of the deposited data

How the results depend on the processing

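No member was called for HRasG12V in keratinocytes or in any interaction under any of 31 alternatives. In neutrophils 2 members (*gstp1*, adjusted p = 0.0283, and *glrx*, adjusted p = 0.0177) were called with no filter on low counts and 1 with DESeq2's Wald test, and in macrophages 4 when only macrophage libraries were fitted, which left 1 residual degree of freedom and called 249 genes. The 4 baseline calls of neutrophils against keratinocytes became 0 with scaling by library size only, 2 with no replicate block (*nfe2l2a* and *sqstm1*, *gstp1* being -1.22, adjusted p = 0.122), 2 on HRasG12V libraries and 1 without batch 2, 5 with no filter on low counts and with DESeq2's Wald test, and 2 to 4 with each library left out. On HRasG12V libraries the *gstp1* difference turned to 0.038 (adjusted p = 0.977). The 1 call of neutrophils against macrophages became 0 with library size only, with only these cell types fitted, with all 18 libraries and without batch 2, 3 with no filter and on HRasG12V libraries, 5 on the mean of both constructs, and 0 to 2 with each library left out. The share of all genes called lower in this comparison moved too, from 1.07% in the main fit to 3.42% on the mean of both constructs. In this comparison a change in the number of calls is thus not particular to the members. For neutrophils against keratinocytes, 372 of 15983 genes were called without neutrophil HRas control replicate 3. DESeq2's Wald test called 66 genes for HRasG12V in neutrophils. Where no number for all genes is given, the counts of members are not read as a result about the members. The 0 calls of macrophages against keratinocytes became 1 with no replicate block, 2 on both constructs and 1 on HRasG12V libraries. The call on HRasG12V libraries was *me1*, which passed the filter on low counts through the macrophage libraries. *me1* was also called in both comparisons with macrophages on both constructs, and for neutrophils against macrophages on HRasG12V libraries. *hmox1a*, which passed the filter in the same way, was called for neutrophils against macrophages on both constructs. The block changed no other count. *nfe2l2a* in neutrophils against keratinocytes lost its call in 1 of 33 alternatives, library size only (-1.22, adjusted p = 0.432). That scaling moved the median of all genes to 0.74 for macrophages and 0.53 for neutrophils against keratinocytes and to -0.20 for neutrophils against macrophages. The cause of these changes was not tested, and with 12 of 30 members under 20 counts per library, differences of the size of their intervals were not detectable.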
